A study of Homo sapiens with 4 samples.

Results

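The genes described here carry symbols of nuclear-encoded subunits of the mitochondrial respiratory chain and ATP synthase. The set is not complete. CYC1 (420 to 473 CPM over the libraries), NDUFAB1, USMG5, C14orf2 and NDUFA4L2 fall outside the symbol rule. They enter no count, sum or median of the members. The members were selected by gene symbol (NDUFA, NDUFB, NDUFC, NDUFS and NDUFV with a number, SDHA to SDHD, symbols opening with UQCR, COX4 to COX8 or ATP5, pseudogene names left out) and by a minimum of 40 read counts summed over all 4 libraries. The rule kept 79 of the 57905 genes in the count table. Complexes were assigned by the opening of the symbol alone, which gave 37 in complex I, 4 in complex II, 8 in complex III, 13 in complex IV and 17 in complex V. A symbol does not settle that a gene is a subunit of that complex. ATP5SL, for one, has the current symbol DMAC2. Without ATP5S, ATP5SL, COX7A2L and COX6B2 the complex V median of the first comparison below was -0.15 in place of -0.10. NDUFA4 was also tried in complex IV. Symbols and summed counts chose the members, so the summed counts are a description only. Of 89 rows with a matching symbol, COX7A1 (60 counts), COX6B2 (218) and NDUFA7 (243) lay just inside the minimum. A second entry of UQCR11 (7 counts), ATP5J2-PTCD1 (4) and COX4I2 (3) lay just outside it. A filter on low values, a mean of at least 1 CPM (counts scaled to library size) over the 4 libraries, was passed by 13966 genes and by 78 of the 79 members, all except COX7A1.

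The labels give 1 library for each of 4 conditions of A549, an epithelial cell line from a human lung adenocarcinoma. Stable transduction is taken from the general methods of the study, which describe stable lentiviral lines. For its RNA sequencing the study writes of transfected A549 cells. The sc line carried a scramble control hairpin and the shDCBLD2 line a hairpin against DCBLD2, and the study describes puromycin lentiviral vectors for its hairpins. The empty vector line and the line labelled DCBLD2 overexpression belong to a blasticidin-selected lentiviral vector with an EF1 promoter, in the latter line with the coding sequence of DCBLD2, a transmembrane receptor-like protein. That line is called here the library labelled overexpression, since its DCBLD2 level goes against the label. Which of the study's hairpins the shDCBLD2 library holds is not given in the sources used here.

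Oxidative phosphorylation couples electron transport to ATP synthesis in the inner mitochondrial membrane. Complex I takes electrons from NADH and complex II from succinate, complex III passes them from ubiquinol to cytochrome c, complex IV hands them to oxygen, and complex V uses the resulting proton gradient to make ATP. Most subunits are encoded in the nucleus and imported, whereas a small core of complexes I, III, IV and V is encoded by mitochondrial DNA, so that the products of both genomes meet in each of those complexes.

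Counts on genes totalled between 16601633 and 21537283 per library, and CPM values were scaled by trimmed mean of M-values (TMM) factors between 0.981 and 1.02. Each condition has 1 library, so differences lack a replicate check, p-values are not given, and what is compared are libraries. In bulk RNA a lower level from fewer cells cannot be told apart from less RNA per cell. The 95% intervals (exact Clopper-Pearson) cover counting error only. DCBLD2 stood at 504 CPM in sc and 197 CPM in shDCBLD2, but at 434 CPM in the empty vector library and 242 CPM in the library labelled overexpression. CDKN2A, which lies in the 9p21 region that A549 lacks, had 0 counts in 3 libraries and 2104 counts in the library labelled overexpression. MTAP of the same region had 9 to 33 counts in the other libraries and 104 in that one, and whether that library holds the line its label names was not tested. Summed fibroblast-like markers (10 genes, FAP at 0 in all libraries) were between 39.2 and 60.5 CPM in the other libraries and 86.3 CPM in that one, summed blood-like markers (10 genes, PTPRC and MS4A1 at 0) ranged from 5.47 to 23.9 CPM over the libraries, and the 10 A549-like markers from 23100 to 32150 CPM. In the library labelled overexpression COL1A1 alone gave 63.1 CPM of the fibroblast-like sum and CD14 alone 20.05 CPM of the blood-like sum, so neither sum is a level of a cell type. Of 66 genes with at least 50 counts in that library alone, 0 were members. The part of these differences in the results below was not tested.

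Members took 1.01% of the counts in sc, 0.95% in shDCBLD2, 1.12% in the empty vector library and 1.12% in the library labelled overexpression. All 5 complexes were expressed in every library. Summed over its members, complex I stood at 2657 CPM in sc, 2552 CPM in shDCBLD2, 3174 CPM in the empty vector library and 3279 CPM in the library labelled overexpression. Complex IV was at 2095, 1874, 2640 and 2700 CPM in the same order, and complex III at 1259, 1210, 1525 and 1460 CPM. Both complexes were thus lowest in shDCBLD2 and higher in the empty vector library and the library labelled overexpression. Complex II, at 487, 488, 536 and 495 CPM, and complex V, at 3324, 3358, 3570 and 3380 CPM, varied less. Of the 78 members past the filter, the library labelled overexpression held the highest level of 35 and the empty vector library of 32, whereas shDCBLD2 held the lowest level of 41. The shares over all genes were not counted, so these counts describe the members only. The heat map of the members shows these levels gene by gene.

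**Figure D1:**
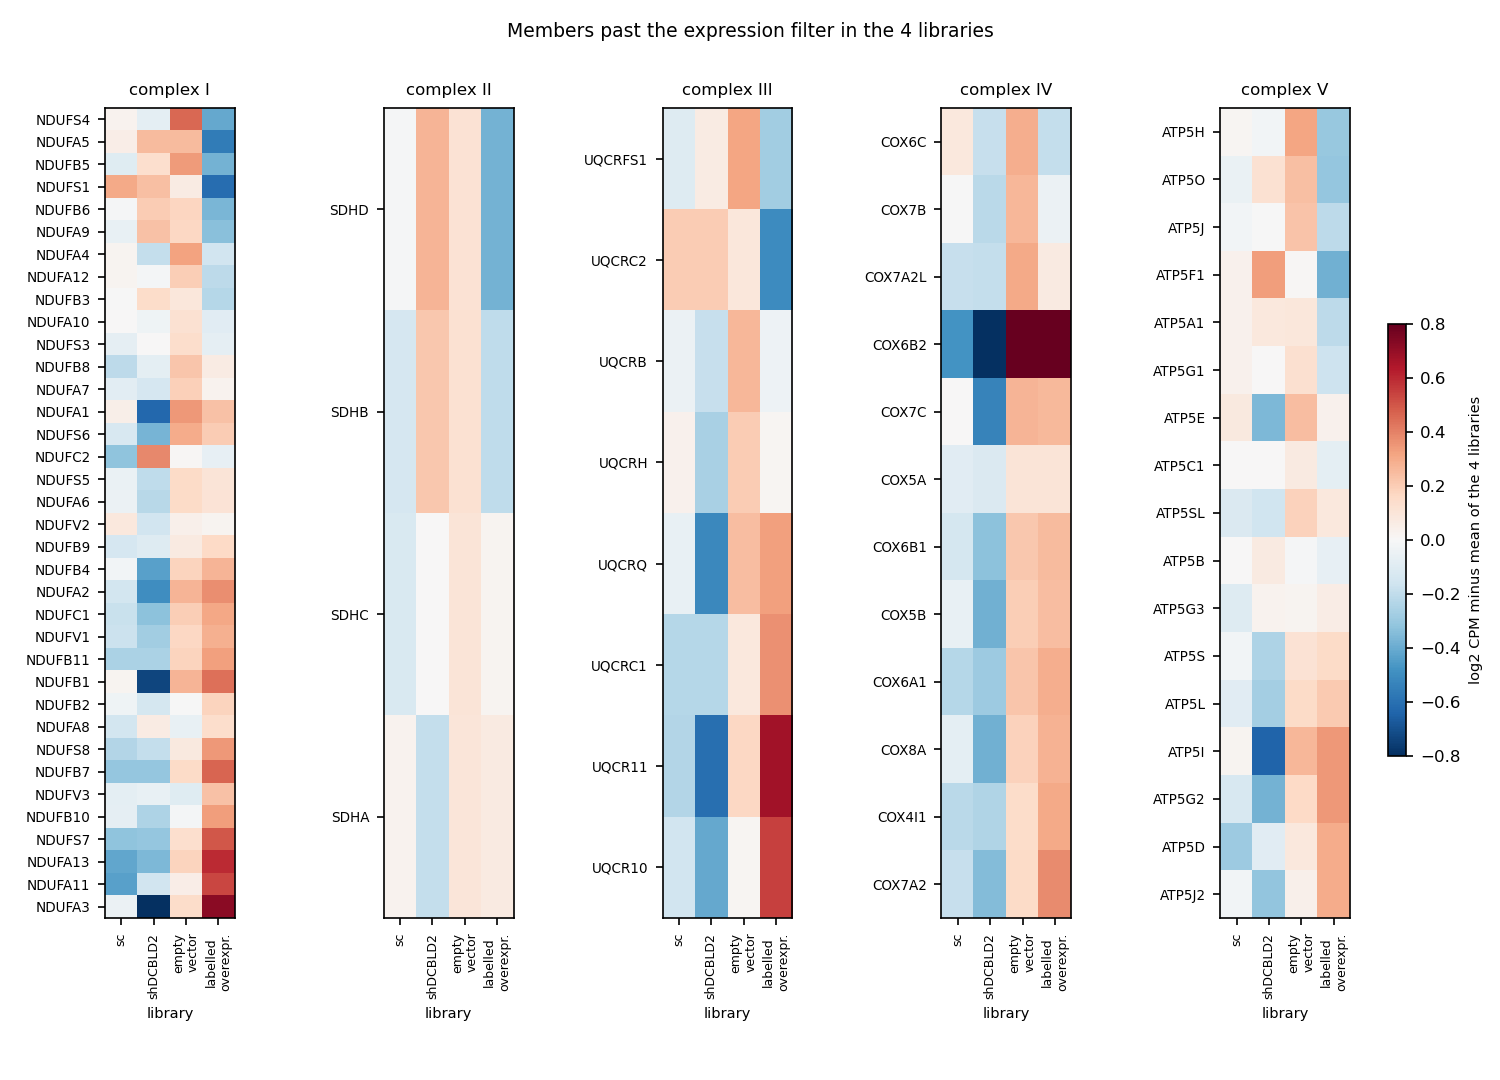
Level of 77 of the 78 members past the expression filter in the 4 libraries, drawn as log2 CPM minus the mean of the gene's 4 values (colour, capped at 0.8), with rows sorted within each complex by the difference between the library labelled overexpression and the empty vector. The rows of complex IV are mostly blue in sc and shDCBLD2 and red in the other libraries, whereas rows of complexes I, III and V run from blue to red in the library labelled overexpression.

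The first comparison set the library labelled overexpression against the empty vector, to ask how the subunits stood after introduction of the DCBLD2 vector; DCBLD2 itself was lower in the former, so no direction can be read as an effect of more DCBLD2. As a group the subunits were level, with a median log2 ratio of -0.05 beside -0.04 for all genes. Of the members, 35 (44.9%) were above 0, beside 47.1% of all genes, and 43 were below 0. Genes were called at a ratio of 1.5-fold or more with a counting interval that excluded no change. On this rule 0 of 78 members were called higher (12.8% of all genes) and 7, or 8.97%, lower (17.8% of all genes). At 2-fold, 0 members were called in either direction, beside 6.39% of all genes higher and 5.29% lower. Both shares of members lay under those of all genes, and that difference was not tested.

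The level group median covered opposite values within single complexes. NDUFS4 (ENSG00000164258, chromosome 5 from 52856463 to 52979168 as deposited, on an unnamed build) is a small subunit of complex I needed for the assembly and stability of its NADH-oxidising module. It had 571 counts in sc, 584 in shDCBLD2, 723 in the empty vector library and 355 in the library labelled overexpression (29.2, 27.1, 39.4 and 21.5 CPM). Its log2 ratio of -0.87 (-1.06 to -0.69) was the lowest of all members. NDUFA5, an accessory subunit of the arm that faces the matrix, stood at 17.1, 19.6, 19.6 and 11.1 CPM in the same order, with a log2 ratio of -0.81 (-1.08 to -0.55). NDUFB5, an accessory subunit of the membrane arm, stood at 21.1, 24.8, 28.5 and 17.4 CPM (log2 ratio -0.71). NDUFS1, the largest iron-sulfur subunit, stood at 108, 104, 92.1 and 57.5 CPM (log2 ratio -0.68), and its coordinates overlap the more abundant EEF1B2. All 4 genes had their lowest level of the 4 libraries in the library labelled overexpression.

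At the other end of complex I, NDUFA3 (ENSG00000170906, chromosome 19 from 54606036 to 54612564), a small membrane-arm subunit, stood at 29.6 CPM in sc, 17.3 CPM in shDCBLD2, 33.9 CPM in the empty vector library and 50.6 CPM in the library labelled overexpression. Its log2 ratio between the last 2 was 0.57 (0.42 to 0.73), or 1.49-fold, the highest of all members and just under the 1.5-fold mark. NDUFA11, which sits in the membrane arm, was at 0.48 (0.38 to 0.59), from 69.2 to 96.7 CPM, and NDUFA13, also known as GRIM-19, at 0.42 (0.28 to 0.56), from 41.7 to 55.7 CPM. The core subunits were split as well. NDUFS7 (0.36) and NDUFS8 (0.27), which carry the iron-sulfur clusters nearest to ubiquinone, were higher, and so was NDUFV1 (0.12), the flavin subunit that accepts electrons from NADH. Among other cores were NDUFV2 at -0.02 (-0.28 to 0.24), NDUFS3 at -0.21 (-0.32 to -0.11) and NDUFS1 as above. Over complex I the median was -0.05, with 17 members above and 20 below 0.

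Complex III showed the same split. UQCRFS1, the Rieske iron-sulfur protein, stood at 294 CPM in sc, 331 CPM in shDCBLD2, 394 CPM in the empty vector library and 261 CPM in the library labelled overexpression, with a log2 ratio of -0.59 (-0.65 to -0.54). UQCRC2, a core protein of the matrix side, stood at 166, 166, 153 and 102 CPM, also with a log2 ratio of -0.59 (-0.68 to -0.51). Its partner core protein UQCRC1 lay on the other side of 0, at 346, 346, 430 and 521 CPM and a log2 ratio of 0.28 (0.23 to 0.32). The small subunits UQCR10 (41.5 to 59.8 CPM, log2 ratio 0.53) and UQCR11 (99.1 to 141 CPM, log2 ratio 0.51) were highest in the complex. The 8 members divided into 4 above and 4 below 0, and all 8 intervals excluded 0, as did those of 67.9% of all genes.

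In complex V, ATP5H, subunit d of the peripheral stalk, was called lower, from 97.5 CPM with the empty vector to 63.5 CPM (log2 ratio -0.62, -0.73 to -0.51). Other stalk genes lay on the same side without reaching 1.5-fold. ATP5O, the oligomycin sensitivity protein, had a log2 ratio of -0.55, ATP5J, coupling factor 6, of -0.44, and ATP5F1, subunit b, of -0.39. With all genes divided into 10 bins by GC content of the transcript, the bin of ATP5J and ATP5F1 had a median of -0.42. That of ATP5H was at -0.24 and that of ATP5O at -0.10. The catalytic subunits ATP5A1 (-0.30) and ATP5B (-0.06) were also below 0, whereas ATP5J2, the membrane subunit f, at 0.26 and ATP5D, the delta subunit of the central stalk, at 0.21 were above it. In complex IV no member was called, and the ratios ran from -0.48 for COX6C to 0.22 for COX7A2 around a median of 0.02.

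Complex II is small, is part of the citric acid cycle and has no mitochondrially encoded subunit. All 4 of its genes lay below 0 in this comparison, with a median of -0.20. Without SDHD, whose coordinates overlap TIMM8B (3216 counts over the 4 libraries beside 2840), the median was -0.079. With each gene taken relative to genes of similar GC content, chosen after seeing the data, it was -0.083. SDHD, a membrane anchor, was at 36.2 CPM in sc, 44 CPM in shDCBLD2, 39.3 CPM in the empty vector library and 27.9 CPM in the library labelled overexpression, a log2 ratio of -0.49 (-0.67 to -0.32). SDHB, the iron-sulfur subunit, was at 74.0, 94.3, 88.4 and 70.4 CPM, a log2 ratio of -0.33 (-0.44 to -0.22). SDHC, the second anchor, at -0.08 and SDHA, the flavoprotein, at -0.03 had intervals that included 0. No gene of complex II reached 1.5-fold in any of the 3 comparisons.

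**Figure D2:**
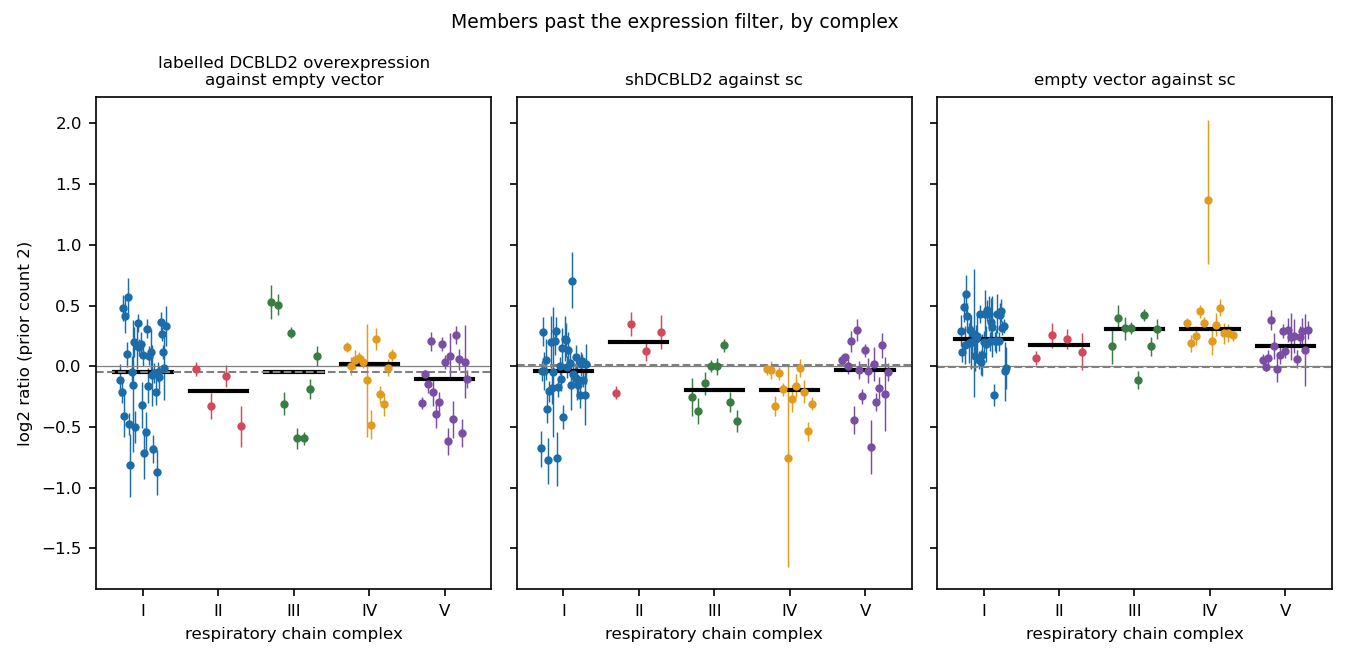
Log2 ratio (prior count 2) of every member past the filter, by complex, in the 3 comparisons; points are genes, thin bars their 95% counting intervals, black bars the medians per complex and the dashed line the median of all genes. Ratios spread on both sides of 0 within complexes I, III and V on the left, the 12 members of complex IV lie below 0 in the middle panel, and 72 of 78 members lie above 0 on the right.

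The position of a member between these extremes moved with the base composition of its transcript. The GC content of the principal GENCODE transcript was between 36.4% and 45.5% in the 7 members called lower. Its median was 45.4% in the 43 members below 0 and 55.6% in the 35 above 0. Over the 78 members Pearson's r between GC content and log2 ratio was 0.68 and Spearman's rho 0.68, and over the 37 members of complex I they were 0.79 and 0.78. Those genes share their libraries, so the coefficients describe this pair of libraries and have no p. Genes at large moved the same way, with r = 0.40 and rho = 0.57 over 13690 genes. With genes divided by GC content into 10 bins, the median log2 ratio was -0.64 in the lowest bin and 0.29 in the highest. When each gene was taken relative to the median of its GC bin, an alternative chosen after seeing the data, 0 members were called lower and 1 was called higher. NDUFS4 then stood at -0.45, ATP5H at -0.38 and NDUFA5 at -0.17. Whether base composition has a part in the split was not tested.

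**Figure D3:**
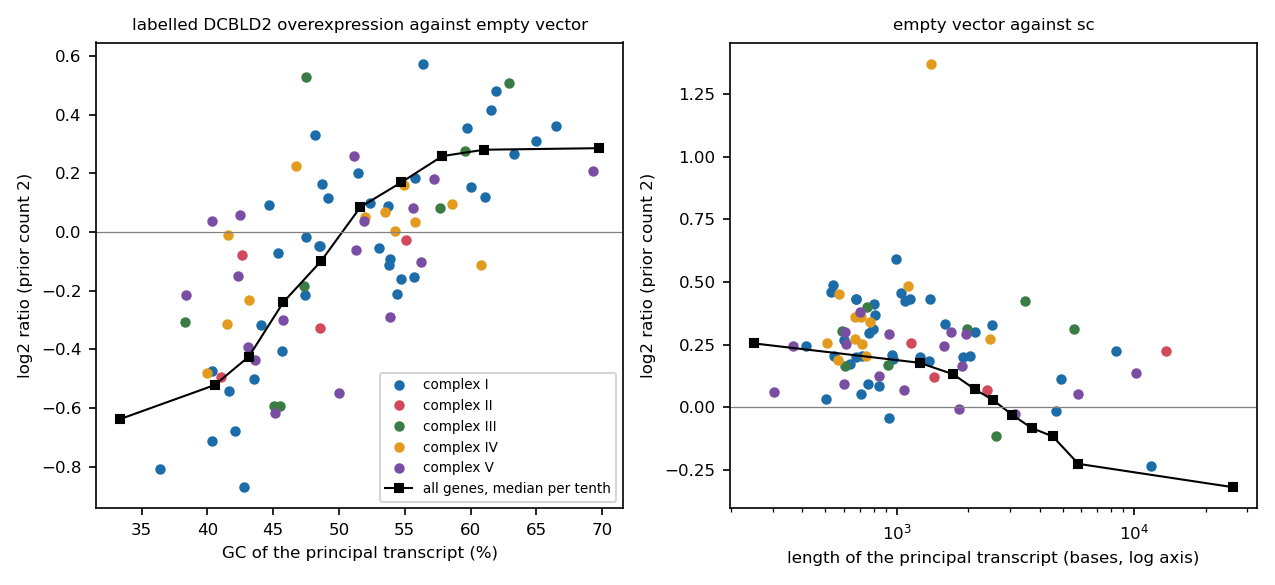
Log2 ratio of the 78 members (points, coloured by complex) against the GC content of the principal transcript for the library labelled overexpression over the empty vector (left) and against its length for the empty vector over sc (right, log axis); black squares are medians of all genes in 10 bins of the property. On the left the members climb with GC content along the all-gene medians, and on the right most members are short and lie above 0.

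Promoter sequence was set beside the ratios for the members at the ends of this comparison. RefSeq windows on GRCh38.p14, cut to 150 bases before and 30 after the annotated start, were at hand for 64 of the 79 members. Members without a window included ATP5B, ATP5D, ATP5G3, ATP5J2, ATP5S, COX6C, COX7A1, NDUFA4, NDUFB5, NDUFB9, NDUFC2, NDUFS5, SDHC and UQCRB. In all, 3 motifs were searched on both strands: GCGCATGCG for nuclear respiratory factor 1 (NRF1), CCGGAAGT for ETS factors such as GABP, and AAGATGGCG for YY1, all known for binding promoters of mitochondrial genes. Each motif was counted on its own, so overlapping matches count for both. Shown are the 3 lowest and 3 highest members by log2 ratio among those with a window, and capitals mark a motif match.
NDUFS4 (chr5:53560489-53560668, plus strand, lowest log2 ratio, -0.87): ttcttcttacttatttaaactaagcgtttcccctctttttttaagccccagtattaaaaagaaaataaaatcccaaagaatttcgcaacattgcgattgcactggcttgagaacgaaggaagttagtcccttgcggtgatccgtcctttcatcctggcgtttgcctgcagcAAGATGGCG
NDUFA5 (chr7:123601622-123601801, minus strand, -0.81): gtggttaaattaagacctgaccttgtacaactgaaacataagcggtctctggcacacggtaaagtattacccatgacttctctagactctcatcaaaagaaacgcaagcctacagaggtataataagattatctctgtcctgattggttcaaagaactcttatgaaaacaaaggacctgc
NDUFS1 (chr2:206159415-206159594, minus strand, -0.68): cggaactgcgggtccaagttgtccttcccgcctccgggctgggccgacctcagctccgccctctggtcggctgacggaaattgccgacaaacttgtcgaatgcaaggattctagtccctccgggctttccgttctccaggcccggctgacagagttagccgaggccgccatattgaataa
UQCR11 (chr19:1605433-1605612, minus strand, 0.51): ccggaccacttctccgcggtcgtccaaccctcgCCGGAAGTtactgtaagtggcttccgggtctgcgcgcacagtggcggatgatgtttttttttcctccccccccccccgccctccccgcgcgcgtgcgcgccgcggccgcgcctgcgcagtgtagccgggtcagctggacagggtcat
UQCR10 (chr22:29767219-29767398, plus strand, 0.53): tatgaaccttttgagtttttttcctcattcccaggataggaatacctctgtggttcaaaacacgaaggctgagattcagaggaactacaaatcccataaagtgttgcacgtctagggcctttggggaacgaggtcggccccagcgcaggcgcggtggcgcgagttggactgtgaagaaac
NDUFA3 (chr19:54102705-54102884, plus strand, highest log2 ratio, 0.57): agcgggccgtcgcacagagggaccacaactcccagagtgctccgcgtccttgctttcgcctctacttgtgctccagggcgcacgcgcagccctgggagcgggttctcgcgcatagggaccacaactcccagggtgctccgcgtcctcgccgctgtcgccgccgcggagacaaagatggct

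Among the 3 low members, the windows of NDUFS4 and NDUFA5 held 42.2% and 40% GC and that of NDUFS1 60.6%. Among the 3 high members, those of UQCR11 and NDUFA3 held 68.9% and 67.8% and that of UQCR10 50.6%, so GC content of the window overlapped between the ends. NDUFS4 held a YY1 match and UQCR11 an ETS match, and the other 4 windows held none of the motifs. The median window of members held 62.5% GC and that of all 27305 promoters 59.4%. At least 1 of the 3 motifs was found in 19 of 64 member windows (29.7%) and in 6.57% of all promoters. By motif, NRF1 matches were in 12.5% of member windows and 1.78% of all, ETS matches in 12.5% and 3.91%, and YY1 matches in 9.38% and 1.26%. Members above 0 in the comparison with the empty vector held a motif in 9 of 30 windows and members below 0 in 10 of 34 (29.4%). By complex, a match was found in 7 of 31 windows of complex I, 2 of 3 of complex II, 3 of 7 of complex III, 2 of 11 of complex IV and 5 of 12 of complex V. A match is a description of the letters, not a bound site.

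The second comparison, shDCBLD2 against sc, asked how the subunits stood with less DCBLD2. The median over members was again near 0, at -0.05 beside 0.01 for all genes. Of the members, 29 (37.2%) were above 0, beside 50.9% of all genes, and 49 were below 0. At 1.5-fold, 1 of 78 members (1.28%) was called higher beside 4.94% of all genes, and 5 (6.41%) lower beside 11.6%. At 2-fold, 0 members were called in either direction, where 1.17% of all genes were higher and 5.65% lower. The 6 members called, described below, are accessory subunits.

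In complex IV, 12 of 12 members past the filter lay below 0, with a median of -0.20. Of the 12 intervals, 9 lay wholly below 0, beside 27.1% of all genes. COX7C, a small subunit with a single membrane span, stood at 144 CPM in sc and 99.5 CPM in shDCBLD2, a log2 ratio of -0.54 (-0.62 to -0.45), while its levels with the empty vector (174 CPM) and in the library labelled overexpression (173 CPM) were close to each other. COX5B, which binds zinc on the matrix side, was at -0.33 (-0.41 to -0.24), from 126 to 101 CPM. COX8A was at -0.31 (-0.36 to -0.25), from 294 to 238 CPM. The subunits nearest 0 were COX7A2L (-0.01), COX4I1 (-0.03) and COX5A (-0.03), whose intervals included 0. The 12 values are differences between the same 2 libraries and not independent observations.

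In complex I, NDUFA3 had the lowest log2 ratio of all members, -0.77 (-0.97 to -0.59), from 580 counts in sc to 373 counts in the deeper shDCBLD2 library. NDUFB1, a small membrane-arm subunit, was at -0.76 (-0.99 to -0.54), from 21.5 to 12.7 CPM, and NDUFA1, an X-linked membrane-arm subunit, at -0.68 (-0.83 to -0.53), from 47.2 to 29.5 CPM. In complex V, ATP5I, the membrane subunit e, was at -0.66 (-0.89 to -0.44), from 21.2 to 13.4 CPM. The fifth gene called lower was COX6B2, with 35 and 22 counts, whose interval reached from -1.65 to just under 0. NDUFC2 (ENSG00000151366, chromosome 11 from 77779350 to 77791265), a membrane-arm subunit, was the only member called higher, at 12.5 CPM in sc, 20.4 CPM in shDCBLD2, 15.7 CPM in the empty vector library and 15.0 CPM in the library labelled overexpression. Its log2 ratio of 0.70 (0.48 to 0.94) corresponds to 1.63-fold.

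Complex II lay on the other side, with 3 of 4 genes above 0 and a median of 0.20. SDHB was at 0.35 (0.25 to 0.45), SDHD at 0.28 (0.14 to 0.42) and SDHC at 0.13 (0.04 to 0.21), whereas SDHA was at -0.22 (-0.27 to -0.16). Complex III had a median of -0.20, led by UQCRQ, a small subunit next to cytochrome b, at -0.45 (-0.54 to -0.36). UQCRC1 and UQCRC2 were both at 0.00, and UQCRFS1 was at 0.17 (0.12 to 0.22). Complex V had a median of -0.03 and ran from ATP5I to ATP5F1 at 0.30 (0.21 to 0.39).

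Relative to the empty vector in place of sc, the median of members for shDCBLD2 was -0.34, beside 0.02 for all genes, with 0 members called higher (11.3% of all genes) and 12, or 15.4%, lower (16.1% of all genes). Relative to sc in place of the empty vector, the median for the library labelled overexpression was 0.20, beside -0.04 for all genes, with 11 members (14.1%) called higher and 3 (3.85%) lower, beside 17.3% and 22.4% of all genes. The choice of control thus moved both medians by more than either differed from 0, which led to the comparison of the controls themselves.

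The third comparison, the empty vector against sc, held neither a DCBLD2 hairpin nor the DCBLD2 coding sequence, and most members lay on one side of 0 in it. Of 78 members, 72 (92.3%) were above 0, beside 49.2% of all genes, and 63 (80.8%) had an interval wholly above 0, beside 26.7% of all genes. The median log2 ratio was 0.25, with quartiles at 0.17 and 0.34, beside -0.01 for all genes. The sizes were small. At 1.5-fold 2 members (2.56%) were called higher, beside 7.07% of all genes, and 0 were called lower, beside 6.67%. At 2-fold, 1 member was called higher, beside 2.21% of all genes, and 0 lower, beside 1.89%. Hairpin and overexpression vectors differ in backbone and selection drug, so constructs and lines cannot be told apart.

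All 12 members of complex IV and all 4 of complex II were above 0, as were 34 of 37 in complex I, 7 of 8 in complex III and 15 of 17 in complex V. The medians were 0.31 in complexes III and IV, 0.22 in complex I and 0.17 in complexes II and V. COX6A1, a subunit of the cytosolic face, was at 0.45 (0.40 to 0.51), from 261 CPM in sc to 357 CPM with the empty vector. COX7A2L, a relative of COX7A2 known for its role in joining complexes III and IV, was at 0.48 (0.41 to 0.56), from 141 to 197 CPM. NDUFA13 was called higher at 0.59 (0.43 to 0.76), from 27.7 to 41.7 CPM, and NDUFB7 was at 0.46 (0.37 to 0.55), from 97.3 to 134 CPM. COX6B2 (ENSG00000160471, chromosome 19 from 55860674 to 55866182), a testis-type isoform, was called higher at 1.37 (0.84 to 2.03), from 35 to 88 counts, which is 2.59-fold.

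The 6 members below 0 were NDUFS1 at -0.23 (-0.33 to -0.14), UQCRC2 at -0.11 (-0.19 to -0.04), NDUFV2, ATP5F1, NDUFV3 and ATP5B. The intervals of the last 4 included 0. ATP5B, the catalytic beta subunit, had the most counts of any member and was nearly level over the libraries, at 1210 CPM in sc, 1274 CPM in shDCBLD2, 1203 CPM in the empty vector library and 1154 CPM in the library labelled overexpression.

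Over genes at large, ratios in this comparison varied with transcript length. With 10 bins by length, the shortest genes had a median log2 ratio of 0.25 and the longest of -0.32, with r = -0.33 and rho = -0.40 over 13690 genes. Of the members, 43 fell in the shortest bin, where their median was 0.25, the same as that of all genes there. The 11 members in the next bin had a median of 0.42 beside 0.18 for its genes. When each gene was taken relative to the median of its length bin, chosen after seeing the data, the median of members was 0.063 in place of 0.25. The part of transcript length in this difference was not tested.

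Several subunits exist as tissue-type isoforms, and the general ones were expressed in all 4 libraries. Levels between genes are compared as CPM per kilobase of the principal transcript, and the range over the 4 libraries is given. COX4I1 was at 563 to 821, COX6A1 at 438 to 655 and COX6B1 at 402 to 601. The partners COX4I2 (3 counts in sc and 0 in the others), COX6A2, COX7B2 and COX8C (0 counts in all 4 libraries) were at or under the floor of 3 counts per library, and COX6B2 was at 0.731 to 3.43. The heart and muscle isoform COX7A1, with 11, 17, 11 and 21 counts in sc, shDCBLD2, the empty vector and the library labelled overexpression, was at 0.738 to 1.67, beside 102 to 168 for its partner COX7A2. Of 10 heart or muscle-like markers, MYH6 and MYH7 had 0 counts in all libraries, and the sum ranged from 7.97 to 34.2 CPM, most of it from MB and TNNI3.

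Subunit c of the ATP synthase rotor is encoded by 3 genes with different import sequences and one mature protein. Their order depended on the length used. Per kilobase of the principal transcript ATP5G3 was highest in every library, at 298 to 333, with ATP5G1 at 214 to 262 and ATP5G2 at 99.1 to 163. In the deposited FPKM, which use the exonic size of the whole gene, ATP5G3 was lowest in every library, at 37.9 to 41.2, with ATP5G1 at 48.7 to 58.8 and ATP5G2 at 48.5 to 79.3. No order of the 3 genes is therefore given. Their ratios differed. Between the library labelled overexpression and the empty vector, ATP5G1 had a log2 ratio of -0.29 (-0.37 to -0.21), ATP5G2 of 0.18 (0.13 to 0.24) and ATP5G3 of 0.04 (-0.02 to 0.09). In shDCBLD2 against sc ATP5G2 was at -0.25 (-0.31 to -0.19) and ATP5G3 at 0.13 (0.08 to 0.19).

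**Figure D4:**
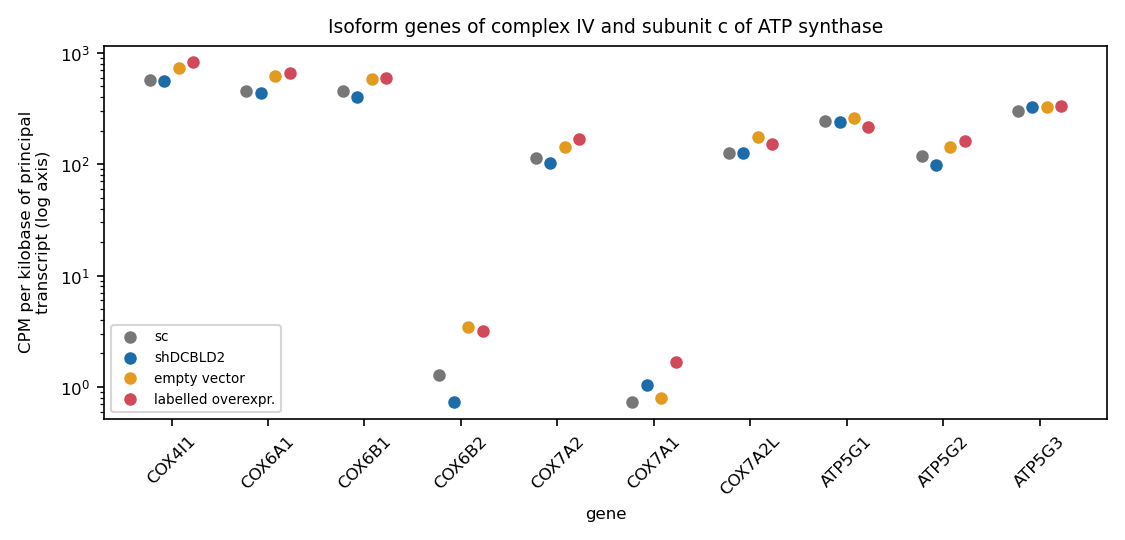
CPM per kilobase of the principal transcript (log axis) in the 4 libraries for isoform genes of complex IV and the 3 genes of ATP synthase subunit c; each point is 1 library. COX6B2 and COX7A1 lie between 0.731 and 3.43, whereas COX4I1, COX6A1 and COX6B1 lie at 402 or more.

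The subunits encoded by mitochondrial DNA were set beside the nuclear ones. Over these 13 genes the median log2 ratio was -0.07 for the library labelled overexpression against the empty vector, 0.06 for shDCBLD2 against sc and 0.29 for the empty vector against sc. The last value lay next to that of the nuclear members, and MT-CO3, a core of complex IV, had the highest ratio there, 0.75, from 3835 to 6446 CPM. In shDCBLD2 the mitochondrially encoded cores of complex IV were nearer 0 than the median of its nuclear subunits (-0.20), with MT-CO1 at -0.04, MT-CO2 at -0.13 and MT-CO3 at 0.09. MT-ND4L, which overlaps MT-ND4 in the mitochondrial genome, was lowest in that comparison, at -0.90. All libraries were made from poly(A)-selected RNA.

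Other mitochondrial lists lay on both sides of 0 in shDCBLD2 against sc. Of 75 mitochondrial ribosomal proteins, which translate the mitochondrially encoded cores, 65 were above 0 (median 0.19), and 19 of 21 import genes were above 0 (median 0.31). TIMM17A, a channel component of the inner membrane translocase, was called higher at 0.85 (0.72 to 0.99), from 33.4 to 60.4 CPM, and MRPL1 was at 0.66. CYCS, the electron carrier cytochrome c, was also called higher, at 0.65 (0.58 to 0.72), from 126 to 198 CPM. At 1.5-fold, 2 of 75 ribosomal, 1 of 21 import and 5 of 45 assembly genes were called higher and 0 of each lower, beside the 4.94% and 11.6% of all genes given above. Citric acid cycle genes and electron carriers had medians of 0.0015 and 0.0052, complex III assembly factors (5 genes) of -0.0067, the 3 genes for the ATPase inhibitor and supercomplex factors of -0.11 and 3 complex V assembly factors of -0.35. The median of the nuclear subunits, -0.05, lay above only the medians of these last lists, of 3 genes each. It lay below those of the larger lists, including all 45 assembly factors (0.07).

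Assembly factors build the complexes without staying in them. In the library labelled overexpression against the empty vector, 3 of 45 (6.67%) were called higher and 7 (15.6%) lower, beside 12.8% and 17.8% of all genes, with a median of -0.14. LRPPRC, which stabilises mitochondrial mRNAs and is needed for complex IV, stood at 177 CPM in sc, 213 CPM in shDCBLD2, 160 CPM in the empty vector library and 75.7 CPM in the library labelled overexpression, a log2 ratio of -1.08 (-1.17 to -0.98). NUBPL, an iron-sulfur assembly factor of complex I, was at -0.99. NDUFAF3, another complex I factor, was at 0.75 (0.66 to 0.84), and PET100 of complex IV at 0.78. Of 13 genes for electron carriers and coenzyme Q, 3 (23.1%) were called lower and 0 higher, with a median of -0.40, and CYCS was at -0.75 (-0.86 to -0.65). Of 16 citric acid cycle genes, 3 (18.8%) were called lower, near the 17.8% of all genes, and 0 higher, with a median of -0.20 and DLD lowest at -0.77.

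Among 16 regulators of mitochondrial biogenesis past the filter, PPARGC1A, the coactivator PGC-1 alpha, had 102 counts in sc, 22 in shDCBLD2, 9 in the empty vector library and 23 in the library labelled overexpression. It was thus highest in sc, with log2 ratios of -2.25 (-3.09 to -1.68) for shDCBLD2 and -3.16 (-4.58 to -2.43) for the empty vector against sc. A link between the regulators and the levels of the subunits was not tested. TFAM, which packages and transcribes mitochondrial DNA, stood at 38.4, 54.7, 33.1 and 22.7 CPM in the same order. PPARGC1B, a related coactivator, stood at 9.40, 11.5, 4.41 and 12.9 CPM, and its log2 ratio of 1.52 (1.17 to 1.94) was the highest of the regulators between the library labelled overexpression and the empty vector. For the empty vector against sc the regulators had a median of -0.19, with 3 above and 13 below 0. The 80 cytosolic ribosomal proteins, a list with similarly short transcripts, had a median of 0.41 there, with 79 above 0, -0.06 in the library labelled overexpression and -0.04 in shDCBLD2.

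**Figure D5:**
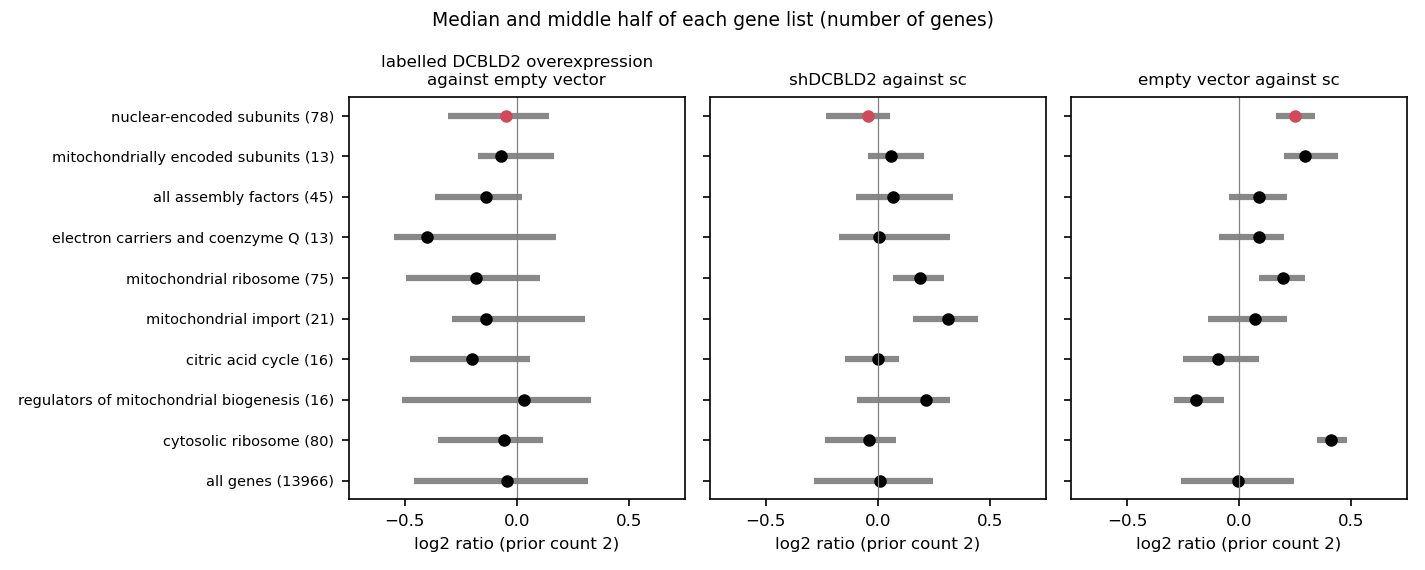
Median log2 ratio (points) and the range between quartiles (grey bars) of the nuclear-encoded subunits (red) and of other gene lists in the 3 comparisons, with the number of genes past the filter in parentheses. In the right panel the subunits (0.25), the mitochondrially encoded subunits (0.29) and the cytosolic ribosome (0.41) lie above all genes (-0.01), and in the middle panel mitochondrial import (0.31) and the mitochondrial ribosome (0.19) lie above the subunits (-0.05).

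Some members share coordinates with another gene, and whether counting used the strand is not given in the sources used here. In the deposited coordinates 50 of the 79 members overlap another gene, and for 22 the overlapping genes held at least 10% as many counts as the member. NDUFS1 overlaps EEF1B2 (34911 counts over the 4 libraries beside 7000), ATP5H overlaps KCTD2 (4339 beside 6051), NDUFA3 overlaps TFPT (1863 beside 2411), NDUFA1 overlaps RNF113A (1740 beside 3507) and ATP5I overlaps MYL5 (835 beside 1600), so reads of these pairs may be divided wrongly. The same holds for SDHD with TIMM8B (3216 beside 2840) and ATP5F1 with WDR77 (4392 beside 6696). ATP5J overlaps genes with 661 counts beside its 3196. NDUFA7, with 243 counts, overlaps RPS28 (464 counts) and a second NDUFA7 entry (2 counts). The part of these overlaps in its low count was not tested. NDUFA5, UQCRC2, UQCR10 and NDUFB1 overlap no other gene. Without the 22 members past that 10% share, an alternative chosen after seeing the data, 5 members were called lower in the library labelled overexpression against the empty vector, and 2 lower and 1 higher in shDCBLD2 against sc. Leaving out all 50 overlapping members gave 2, 1 and 0. That step also drops NDUFS4 and NDUFB5 (0 counts on overlapping genes), NDUFC2 (2), COX6B2 (8) and UQCRFS1 (11). Few counts on an overlapping entry do not show that the member lost no reads, since how shared reads were treated is not given. NDUFC2 overlaps the entry NDUFC2-KCTD14.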

How the data were processed

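RNA-seq of 4 libraries labelled A549, 1 per condition, was examined. The files deposited by the authors hold raw read counts for each gene and FPKM values, which the authors computed with exonic gene sizes. FPKM values were used to choose named genes and, for the 3 genes of ATP synthase subunit c, were set beside CPM per kilobase. The aligner, counter and strand setting are not given in the sources used here, and the processing notes list mm9, a mouse build, whereas identifiers are human, so no coordinates were moved between builds. Counts were scaled with TMM factors (edgeR 4.0.16, R 4.3.3), with DESeq2 1.42.0 size factors as an alternative. Log2 ratios used a prior count of 2, 95% Clopper-Pearson (exact) intervals from both counts, a mean CPM of at least 1 and a 1.5-fold threshold. No p-values are given. GC content and length are those of GENCODE 29 principal transcripts, found for 98.0% of genes past the filter and all 79 members. Promoters came from RefSeq by current symbol. Python 3.11.15 with pandas 2.3.3, scipy 1.17.1, numpy 2.4.6 and matplotlib 3.10.9 was used, and calls were tested on simulated data. Genes named are the 5 highest and 5 lowest members per comparison, the member with the highest FPKM per complex, complex II, isoforms, members near the count minimum or sharing coordinates and the extremes of each other list, of which some are printed; others were chosen after their values were seen. Members and lists were chosen with earlier results of these data known. Alternatives were other scaling, prior counts of 0.5 and 5, other filters, counts drawn down to the smallest library, no overlapping members, the other control library and a 2-fold threshold; GC and length centring, NDUFA4 in complex IV, leaving out members whose overlapping genes hold at least 10% of their counts and leaving out ATP5S, ATP5SL, COX7A2L and COX6B2 were chosen after seeing the data. The values of 1 member are not reported here, although it enters the counts and medians.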

Additional observations from a re-analysis of the deposited data

How the results depend on the processing

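No paired analysis was possible because each condition has 1 library. Low counts limit COX7A1, COX6B2 and NDUFA7, whose intervals are wide, and the intervals say nothing of variation between cultures. With the other control library, the median of members was 0.20 for the library labelled DCBLD2 overexpression (complex I 0.25, complex II -0.014, complex IV 0.33; 11 members higher and 3 lower) and -0.34 for shDCBLD2 (complex I -0.29, complex IV -0.51, complex V -0.23; 0 higher and 12 lower). At 2-fold, 0 members were lower in the library labelled DCBLD2 overexpression, 0 higher and 0 lower in shDCBLD2, and 1 higher for the empty vector against sc. Without overlapping members, 2 were lower in the library labelled DCBLD2 overexpression, 0 higher and 1 lower in shDCBLD2 with a complex I median of -0.13, and 0 higher for the empty vector, with a complex V median of 0.30. Without members whose overlapping genes hold at least 10% of their counts, 2 were lower in shDCBLD2 and 1 higher for the empty vector. With GC centring, 1 was higher and 0 lower in the library labelled DCBLD2 overexpression, and the complex II median for the empty vector was 0.30. With length centring, 1 was higher and 3 lower in the library labelled DCBLD2 overexpression; for the empty vector the median was 0.063 (complex I 0.084, II 0.060, IV 0.095, V 0.033) and 1 was higher. With library totals only, 1 was higher in the library labelled DCBLD2 overexpression (likewise with DESeq2 size factors), and for the empty vector the median was 0.19 (complex I 0.16, IV 0.24) and 1 was higher. The median of all genes for the empty vector moved down as well, to -0.07 from -0.01. A mean CPM of at least 10, or leaving out ATP5S, ATP5SL, COX7A2L and COX6B2, left 1 higher for the empty vector. Fewer members or a higher threshold lower a count by construction; otherwise the cause was not tested. Under the alternatives, 206 other medians stayed within the binomial 95% interval of the median over members and 58 other counts within 1.5 times the value given. That interval is a spread over genes of the same libraries, and for complexes II and III it is the full range of their members. Staying inside it therefore does not show that a median is stable. For the library labelled DCBLD2 overexpression the complex III median counted as inside at 0.20 with the other control library, beside -0.05. The 15 called log2 ratios stayed within their counting interval in 150 cases and left it in 21, all under GC centring, length centring or the other control library.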
